A study of Mus musculus with 48 samples.

Results

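The genes described here are 7 that mark macrophages resident in the colon or in other tissues: Adamdec1, Igf1, Vcam1, Dnase1l3, Bhlhe41, Tnfsf13b and Adgre1. They were picked by name from the 24537 gene rows of a count table as macrophage genes whose level differed between cells sorted as low (Ly6Clo) and as high (Ly6Chi) in Ly6C, and all 7 were found in the table. That difference therefore chose the genes and is given as a description only. Their levels across the MHC class II gates and the genotypes were not named in the choice, although the libraries are the same. The choice was made with earlier results of these data known, so the tests across those gates and genotypes are not fully independent of it.

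The libraries were made from intratumoral immune cells of the colon of mice (Mus musculus), taken on day 85 of AOM DSS treatment. In this model of colon cancer, azoxymethane (AOM) is a carcinogen and dextran sulfate sodium (DSS) damages the epithelium. Mice labelled ko for Ccl17, a chemokine of dendritic cells, are compared with mice labelled ctrl. The sources used here do not give the deleted part of Ccl17, the strain or the age of the animals. Cells were sorted into 4 populations by Ly6C, abundant on blood monocytes, and MHC class II, the surface proteins that show antigen to helper T cells. The 8 groups are Ly6Clo MHCIIhi ko and ctrl with 8 replicates each, and ko and ctrl of Ly6Clo MHCIIlo, Ly6Chi MHCIIhi and Ly6Chi MHCIIlo with 4 replicates each. The series names ko mice that shared cages with controls and ko mice kept apart, but housing is not labelled per sample. Whether replicates are different animals is not labelled, and the p-values thus reflect sample spread that may be technical.

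Macrophages of the gut wall are replaced largely by blood monocytes. Arriving monocytes carry much Ly6C, lose it as they mature and gain MHC class II on the way. The mature cells clear dying cells, support the epithelium and persist as resident macrophages. Adgre1 encodes F4/80, the adhesion receptor by which mouse macrophages are commonly recognised. Adamdec1 encodes a secreted metalloprotease of gut macrophages that gut fibroblasts also make. Igf1 encodes an insulin-like growth factor, and Tnfsf13b encodes BAFF, a survival factor of B cells. Vcam1 encodes an adhesion protein bound by integrins that contain the alpha 4 chain, and endothelial cells carry it too. Dnase1l3 encodes a secreted nuclease that digests DNA in chromatin and is also made by dendritic cells. Bhlhe41 encodes a repressor of transcription that binds E-box sequences.

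Of the 7 genes, 3 had a promoter window in the RefSeq table used (GRCm38.p6), with 4 windows of 300 bases in all, 250 before a transcription start and 50 after it. The windows of Igf1 and Bhlhe41 are shown because each was among the 3 genes most like the other over the 8 groups, as described further on. The 250 bases before the start are printed from 5′ to 3′ on the strand of the gene. They lie at chr10:87860861-87861110 on the plus strand for Igf1 and at chr6:145865421-145865670 on the minus strand for Bhlhe41. Capitals mark GAGGAA in the Igf1 window, the core letters of sites of PU.1, a factor needed to make macrophages, and CACGTG in the Bhlhe41 window, the palindromic E-box.
Igf1: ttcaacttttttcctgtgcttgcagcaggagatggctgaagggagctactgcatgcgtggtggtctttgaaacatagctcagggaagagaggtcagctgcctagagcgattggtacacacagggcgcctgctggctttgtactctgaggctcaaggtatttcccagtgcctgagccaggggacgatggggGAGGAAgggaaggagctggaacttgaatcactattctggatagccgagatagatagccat
Bhlhe41: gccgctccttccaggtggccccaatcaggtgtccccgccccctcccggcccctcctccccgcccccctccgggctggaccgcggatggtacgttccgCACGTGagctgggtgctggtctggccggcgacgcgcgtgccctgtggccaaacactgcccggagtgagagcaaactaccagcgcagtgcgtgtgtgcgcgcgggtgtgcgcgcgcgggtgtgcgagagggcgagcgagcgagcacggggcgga
Both strands were searched for both motifs, which share no letters where they were found. GAGGAA stood at positions 191 to 196 of the Igf1 window and CACGTG at positions 98 to 103 of the Bhlhe41 window, counted from 1 at the 5′ end. Of all 32851 windows of this length, 28.3% held GAGGAA and 7.15% held CACGTG on either strand. Neither motif was in the 2 windows of Tnfsf13b. A match is a description of letters and not of a bound site.

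In GRCm38, Adamdec1 lies on chromosome 14 from 68563380 to 68582095 on the minus strand and Dnase1l3 on chromosome 14 from 7964533 to 7994573 on the minus strand. Igf1 lies on chromosome 10 from 87858265 to 87937042 on the plus strand. Vcam1 lies on chromosome 3 from 116109949 to 116129688 on the minus strand and Bhlhe41 on chromosome 6 from 145858243 to 145865558 on the minus strand. The RefSeq starts used for Igf1 and Bhlhe41 are within these annotated genes, which also cover all of the bases printed for Igf1 and part of those printed for Bhlhe41. Tnfsf13b lies on chromosome 8 from 10006467 to 10039072 on the plus strand and Adgre1 on chromosome 17 from 57358691 to 57483527 on the plus strand. All 7 are annotated as protein coding by GENCODE release M21. The counts are per gene, and no transcript form can be read from them.

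Levels are given as CPM, the count of a gene scaled to a common library size after TMM normalization, with the SD over replicates. The 48 libraries held 8409 to 500683 counts, and 1 library of 8409 counts, Ly6Chi MHCIIhi ctrl replicate 2, fell under the minimum of 0.1 of the median and was left out, while the lowest one kept held 34362. In the 8 Ly6Clo MHCIIhi replicates with a second library the counts of both were added, which leaves 39 samples. Ly6c2, a Ly6C gene, averaged 26.3 and 41.4 CPM in Ly6Clo MHCIIhi and MHCIIlo and 497 and 1226 CPM in Ly6Chi MHCIIhi and MHCIIlo, and Cd74, the MHC class II chaperone, averaged 13864 and 2471 CPM in Ly6Clo MHCIIhi and MHCIIlo and 9659.9 and 1858 CPM in Ly6Chi MHCIIhi and MHCIIlo. All 8 macrophage markers on the list used, Csf1r, the receptor for the macrophage growth factor, and the complement gene C1qa among them, were detected in every population. Their summed level was 8751 to 18756 CPM in Ly6Clo MHCIIhi, 6786 to 13673 CPM in Ly6Clo MHCIIlo, 1962 to 6558 CPM in Ly6Chi MHCIIhi and 1883 to 3483 CPM in Ly6Chi MHCIIlo. Ly6Chi MHCIIhi ctrl replicate 1 stood apart, with summed red cell markers at 239055 CPM and neutrophil markers at 53144 CPM, against at most 1712 and 1443 CPM in the other 6 replicates of Ly6Chi MHCIIhi. In such bulk samples fewer cells of a type and less RNA per cell cannot be told apart.

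Across the sorted populations, all 7 genes averaged more in Ly6Clo than in Ly6Chi cells, the property by which they were chosen. Adgre1 was the one whose ranges did not overlap, with a lowest Ly6Clo replicate of 89.5 CPM and a highest Ly6Chi replicate of 84.9 CPM. Over all 6032 genes kept for the 8 groups, 0.166% had every Ly6Clo replicate above every Ly6Chi replicate, and nothing is read from this count because the choice used this contrast. The other 6 overlapped, with 23 of 24 Ly6Clo replicates above the highest Ly6Chi replicate for Adamdec1 and Vcam1, 22 for Igf1, 17 for Dnase1l3 and Bhlhe41 and 15 for Tnfsf13b. The plot of levels by replicate shows these distributions.

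**Figure D1:**
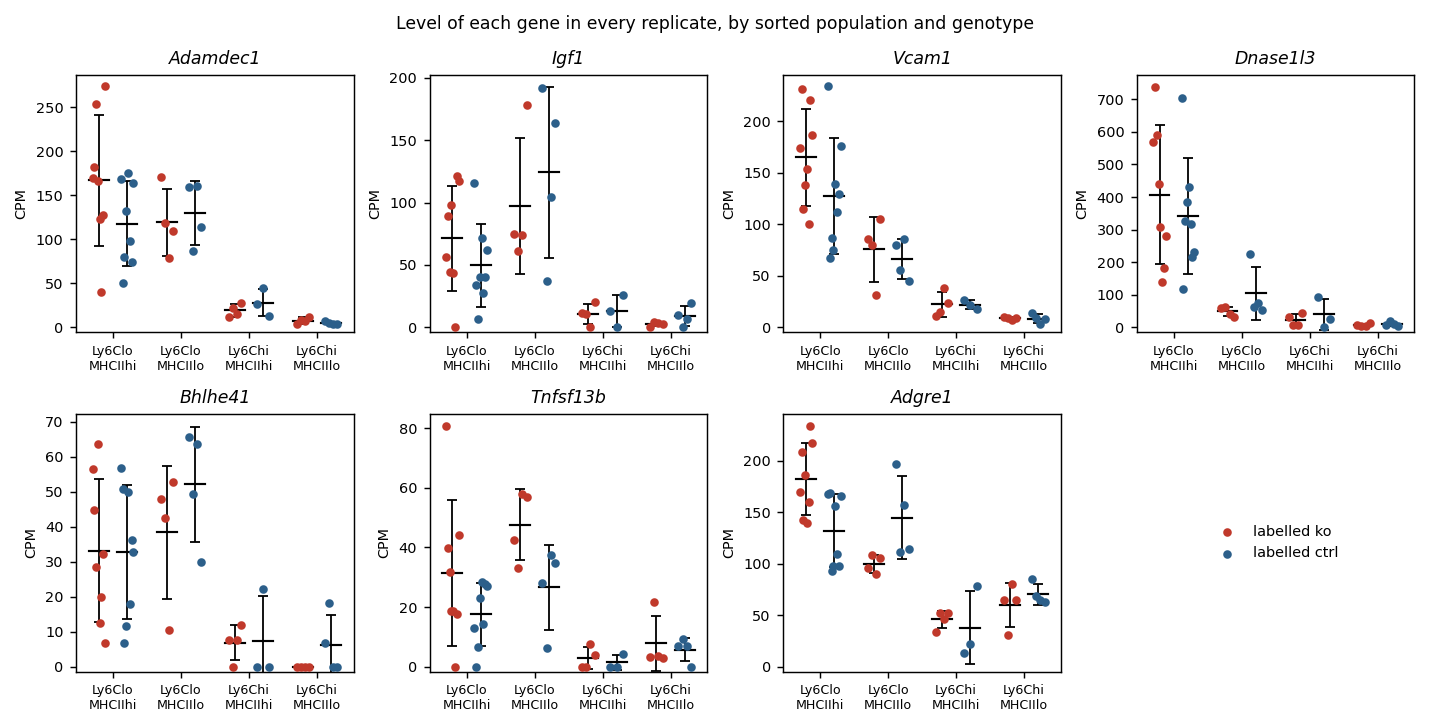
Level of each of the 7 genes in CPM (y axis) in every replicate of the 4 sorted populations, labelled ko left of labelled ctrl; points are replicates, horizontal lines means and bars SD. All 7 genes average less in Ly6Chi than in Ly6Clo, although Adgre1 reaches 84.9 CPM in Ly6Chi. Dnase1l3 is spread from 118 to 739 CPM in Ly6Clo MHCIIhi, and Igf1 averages more in Ly6Clo MHCIIlo than in Ly6Clo MHCIIhi.

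Adgre1 had the smallest Ly6C difference among the 6 genes that could be fitted. Its log2 difference, Ly6Clo over Ly6Chi, was 1.71 in MHCIIhi cells and 1.03 in MHCIIlo cells. Adgre1 averaged 157 ± 42.8 CPM (SD, n = 16) in Ly6Clo MHCIIhi, 122 ± 36.2 CPM (SD, n = 8) in Ly6Clo MHCIIlo, 65.2 ± 16.3 CPM (SD, n = 8) in Ly6Chi MHCIIlo and 42.5 ± 21.7 CPM (SD, n = 7) in Ly6Chi MHCIIhi. Neighbours within each level of Ly6C overlapped. F4/80 transcript was counted in every Ly6Chi replicate used, where its lowest value was 13.3 CPM from 1 count in ctrl replicate 1 of Ly6Chi MHCIIhi.

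Adamdec1, the secreted metalloprotease, averaged 142 ± 65.7 CPM (SD, n = 16) in Ly6Clo MHCIIhi, 125 ± 34.9 CPM (SD, n = 8) in Ly6Clo MHCIIlo, 23.0 ± 11.4 CPM (SD, n = 7) in Ly6Chi MHCIIhi and 6.17 ± 2.98 CPM (SD, n = 8) in Ly6Chi MHCIIlo. The range of Ly6Clo MHCIIlo lay within that of Ly6Clo MHCIIhi, the Ly6Chi populations overlapped, and no Ly6Clo MHCIIlo replicate was as low as any Ly6Chi MHCIIhi replicate. Its log2 difference, Ly6Clo over Ly6Chi, was 2.94 in MHCIIhi and 4.35 in MHCIIlo cells. Summed fibroblast markers, of cells that also make Adamdec1, were at 0 to 79.2 CPM in Ly6Clo MHCIIhi, 0 to 43.2 CPM in Ly6Clo MHCIIlo, 0 to 34.0 CPM in Ly6Chi MHCIIhi and 0 to 157 CPM in Ly6Chi MHCIIlo. Of that list of 8, 7 were detected in Ly6Clo MHCIIhi, where Lum was at 0, and 6 in Ly6Clo MHCIIlo, where Lum and Pdgfra were at 0. Their part in the level of Adamdec1 was not tested.

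Vcam1, the adhesion gene, averaged 146 ± 53.8 CPM (SD, n = 16) in Ly6Clo MHCIIhi, 71.0 ± 24.6 CPM (SD, n = 8) in Ly6Clo MHCIIlo, 22.1 ± 9.01 CPM (SD, n = 7) in Ly6Chi MHCIIhi and 8.53 ± 2.84 CPM (SD, n = 8) in Ly6Chi MHCIIlo. Dnase1l3, the nuclease, had the same order of populations. Dnase1l3 averaged 374 ± 193 CPM (SD, n = 16), 76.3 ± 61.3 CPM (SD, n = 8), 29.8 ± 31.8 CPM (SD, n = 7) and 8.16 ± 5.03 CPM (SD, n = 8) in these populations. The highest Ly6Chi value of Dnase1l3, 92.8 CPM from 7 counts, was that of the library with many red cell and neutrophil transcripts, and the next was 44.1 CPM. All neighbours in this order overlapped for both genes. The log2 difference, Ly6Clo over Ly6Chi, was 2.92 in MHCIIhi and 3.15 in MHCIIlo cells for Vcam1. For Dnase1l3 it was 3.74 in MHCIIhi and 3.26 in MHCIIlo cells.

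Igf1, Bhlhe41 and Tnfsf13b had another order, with the highest mean in Ly6Clo MHCIIlo. Igf1 averaged 111 ± 59.3 CPM (SD, n = 8) there, 60.6 ± 38.4 CPM (SD, n = 16) in Ly6Clo MHCIIhi, 11.7 ± 9.61 CPM (SD, n = 7) in Ly6Chi MHCIIhi and 5.93 ± 6.49 CPM (SD, n = 8) in Ly6Chi MHCIIlo. Bhlhe41 averaged 45.2 ± 18.0, 33.0 ± 19.1, 7.06 ± 8.17 and 3.12 ± 6.54 CPM in these populations (SD, same n). Tnfsf13b averaged 37.1 ± 16.5 CPM (SD, n = 8) in Ly6Clo MHCIIlo, 24.5 ± 19.5 CPM (SD, n = 16) in Ly6Clo MHCIIhi, 6.76 ± 6.66 CPM (SD, n = 8) in Ly6Chi MHCIIlo and 2.30 ± 3.10 CPM (SD, n = 7) in Ly6Chi MHCIIhi. All neighbours in these orders overlapped. The log2 difference, Ly6Clo over Ly6Chi, was 2.27 in MHCIIhi and 4.29 in MHCIIlo cells for Igf1 and 2.47 and 3.99 for Bhlhe41, and Tnfsf13b was too low to be fitted. Bhlhe41 was at 0 in 9 of 15 Ly6Chi replicates, including all 4 of Ly6Chi MHCIIlo ko. There the limits for a count of 0 were 7.72 to 12.8 CPM by the library totals without TMM scaling. Igf1 was at 0 in 4 and Tnfsf13b in 5 of 15 Ly6Chi replicates. Such limits, set at 3 counts of a library, cover counting error only and are not on the scale of the levels. In Ly6Chi MHCIIlo ko replicate 4, with the limit of 7.72 CPM, 3 counts of Vcam1 stood at 8.82 CPM after TMM scaling.

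MHCIIhi cells were next compared with MHCIIlo cells within the Ly6Clo gate. Dnase1l3 and Vcam1 were higher and Igf1 was lower in MHCIIhi cells, so the 7 genes did not move as a block. Adamdec1, Adgre1 and Bhlhe41 did not pass, and Tnfsf13b was under the count filter. Thus 3 of the 6 tested genes passed an adjusted p of 0.05 in the quasi-likelihood test of edgeR with genotype in the model, against 27.6% of all 4341 genes tested. Higher in MHCIIhi were 2 of the 6, against 13.3% of all genes tested, and lower was 1 of the 6, against 14.3%. The median log2 fold change was 0.16 over the 6 and -0.0021 over all genes tested, and a count over 6 genes chosen for other values shows nothing particular to them.

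Dnase1l3 ran from 118 through a median of 323 to 739 CPM in Ly6Clo MHCIIhi, against 32.4 through 59.9 to 225 CPM in Ly6Clo MHCIIlo. In MHCIIhi, 12 of 16 replicates lay above the highest MHCIIlo replicate, ctrl replicate 1, and all 16 above the MHCIIlo mean. The log2 fold change, MHCIIhi over MHCIIlo, was 2.21 (SE 0.34, edgeR adjusted p = 1.34e-05). It was 2.98 (SE 0.42, adjusted p = 0.00015) in labelled ko alone and 1.63 (SE 0.41, adjusted p = 0.0194) in labelled ctrl alone. Neither value takes account of the library barcodes, described further on, which were tied to genotype in Ly6Clo MHCIIlo. These values rest on 2821 counts in MHCIIhi and 129 in MHCIIlo.

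Vcam1 ran from 67.6 through a median of 139 to 234 CPM in Ly6Clo MHCIIhi, against 31.6 through 79.9 to 105 CPM in Ly6Clo MHCIIlo. Again 12 of 16 MHCIIhi replicates lay above the highest MHCIIlo replicate. The log2 fold change was 0.95 (SE 0.20, edgeR adjusted p = 0.000788). It was 1.01 (SE 0.26, adjusted p = 0.0152) in labelled ko alone, while in labelled ctrl alone it was 0.88 (SE 0.29) and did not pass (adjusted p = 0.0693). Summed endothelial markers, 7 on the list, ran from 13.3 to 92.8 CPM in Ly6Clo MHCIIhi and from 22.4 to 47.9 CPM in Ly6Clo MHCIIlo, and 6 of them were detected in Ly6Clo MHCIIhi, where Emcn was at 0, and 5 in Ly6Clo MHCIIlo, where Cldn5 and Emcn were at 0. Pecam1, an adhesion gene of endothelial cells that leukocytes also express, averaged 29.5 CPM in Ly6Clo MHCIIhi and 24.7 CPM in Ly6Clo MHCIIlo, and the part of endothelial cells in the level of Vcam1 was not tested.

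Igf1 ran from 0 through a median of 50.5 to 121 CPM in Ly6Clo MHCIIhi, against 37.0 through 89.6 to 192 CPM in Ly6Clo MHCIIlo. The ranges overlapped widely, with 13 of 16 MHCIIhi replicates below the MHCIIlo mean and 4 below its lowest replicate. The log2 fold change was -0.89 (SE 0.30, edgeR adjusted p = 0.0267). It was -0.44 (SE 0.36, adjusted p = 0.446) in labelled ko alone and -1.34 (SE 0.40, adjusted p = 0.0484) in labelled ctrl alone, and the call ended without Ly6Clo MHCIIlo ctrl replicate 1 (-0.71, adjusted p = 0.0896), ctrl replicate 4 (-0.77, adjusted p = 0.0758) or ko replicate 4 (-0.76, adjusted p = 0.0906). Igf1 was the 1 call of the 3 that ended when a single replicate was left out. The value of 0 was that of ko replicate 6, a library of 39872 counts. Its limit of 3 counts is 75.2 CPM by the library total without TMM scaling. With that scaling, 2 counts of Adamdec1 stood at 39.9 CPM in this library.

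**Figure D2:**
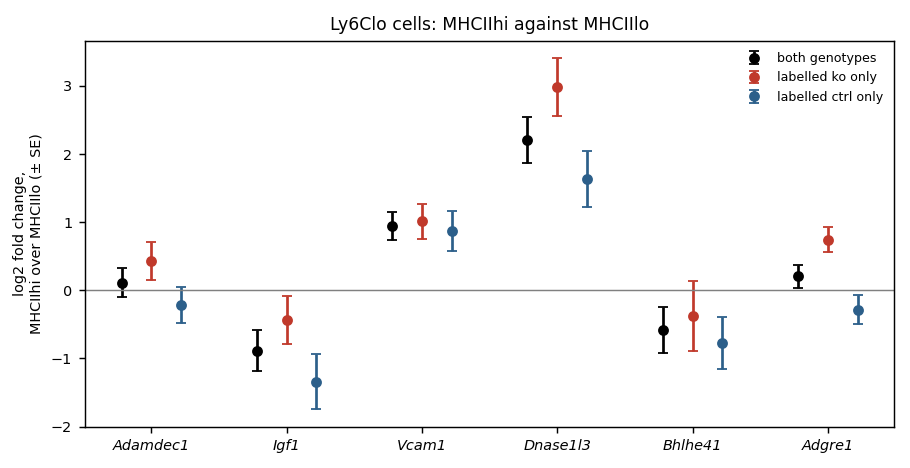
Log2 fold change of MHCIIhi over MHCIIlo in Ly6Clo cells with its SE (y axis) for the 6 genes tested, in both genotypes together and in labelled ko or labelled ctrl alone. Dnase1l3 and Vcam1 lie above 0 and Igf1 below 0 in each, whereas Adgre1 stands at 0.74 in labelled ko and -0.28 in labelled ctrl.

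Adamdec1 had a log2 fold change of 0.11 (SE 0.21, edgeR adjusted p = 0.735) between MHCIIhi and MHCIIlo in Ly6Clo cells, and Bhlhe41 of -0.59 (SE 0.34, adjusted p = 0.199). Adgre1 had 0.21 (SE 0.17, adjusted p = 0.383). Its value was 0.74 (SE 0.18, adjusted p = 0.0132) in labelled ko and -0.28 (SE 0.22, adjusted p = 0.442) in labelled ctrl, and Adamdec1 likewise stood at 0.43 and -0.21, neither of which passed. Whether genotype differences differ between the 4 populations was tested by their interaction, which Adgre1 did not pass (edgeR p = 0.00601, adjusted p = 0.616). Tnfsf13b, tested with no count filter, had -0.54 (SE 0.26, adjusted p = 0.283).

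Markers of other cells moved with this comparison as well. Summed neutrophil markers were 166 to 1299.8 CPM in Ly6Clo MHCIIhi and 4485 to 26826 CPM in Ly6Clo MHCIIlo, and 6 of the 6 tested of that list of 8 were lower in MHCIIhi. Summed conventional dendritic cell markers were 138 to 488 CPM in Ly6Clo MHCIIhi, where all 8 were detected, and 23.4 to 89.6 CPM in Ly6Clo MHCIIlo, where Xcr1, a receptor of cross-presenting dendritic cells, was at 0. Of that list of 8 only 3 passed the count filter, and these were higher in MHCIIhi, the direction of Dnase1l3. They were Ccr7, a homing receptor (log2 fold change 2.67), Fscn1, an actin bundler (3.99), and Cd209a, a lectin (2.02). Among the untested others, Flt3 averaged 14.1 CPM in MHCIIhi and 6.46 CPM in MHCIIlo. Clec9a, with 3 counts in each population, averaged 0.63 CPM in MHCIIhi and 1.76 CPM in MHCIIlo. Of the B and plasma cell list, 1 of 3 tested was higher in MHCIIhi, Igkc (2.90). Of the epithelial list, 2 of 5 tested were lower, Lgals4 (-1.44) and Krt8 (-1.09). The part of all these other cells in the values of the 7 genes was not tested.

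Among the Ly6Chi cells only Adgre1 passed the count filter, and its log2 fold change of MHCIIhi over MHCIIlo was -0.34 (SE 0.25, edgeR adjusted p = 0.535), so 0 of 1 tested passed, against 3.23% of all 4117 genes tested. The other 6 genes were counted 3 to 35 times in Ly6Chi MHCIIhi and 6 to 19 times in Ly6Chi MHCIIlo in all. Adamdec1 stood at 11.3, 22.1, 15.4 and 28.1 CPM in Ly6Chi MHCIIhi ko and 26.5, 44.2 and 13.1 CPM in Ly6Chi MHCIIhi ctrl, against 3.26, 8.66, 7.01 and 11.8 CPM in Ly6Chi MHCIIlo ko and 6.79, 4.55, 3.41 and 3.93 CPM in Ly6Chi MHCIIlo ctrl. For Adamdec1 and for Vcam1, 6 of 7 MHCIIhi replicates lay above the highest MHCIIlo replicate. With no count filter, the log2 fold change was 1.57 (SE 0.56, adjusted p = 0.169) for Adamdec1, 1.202 (SE 0.53, adjusted p = 0.39) for Vcam1 and 1.38 (SE 0.62, adjusted p = 0.398) for Igf1. Dnase1l3 passed in that fit (1.84, SE 0.49, adjusted p = 0.0139) but not when the library that stood apart was also left out (1.48, SE 0.52, adjusted p = 0.169). Summed monocyte markers were 2188 to 7697 CPM in Ly6Chi MHCIIhi and 6855 to 11123.5 CPM in Ly6Chi MHCIIlo, and neutrophil markers 235 to 53144 CPM in Ly6Chi MHCIIhi and 5758 to 17974 CPM in Ly6Chi MHCIIlo. Their part in these values was not tested.

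Genotypes were compared within each population. No tested gene of the 7 passed in any population, by edgeR or by DESeq2. In Ly6Clo MHCIIhi, 0 of 7 passed, against 0.0% of all 5660 genes tested, and 2 of the 7, Adgre1 and Adamdec1, had an unadjusted p under 0.05, as had 296 of all. In Ly6Clo MHCIIlo, 0 of 6 passed, against 0.0314% of 3182 genes, with Dnase1l3 and Adgre1 under an unadjusted p of 0.05, as were 136 of all. In Ly6Chi MHCIIhi and MHCIIlo only Adgre1 was tested, and it passed neither the adjusted threshold nor an unadjusted p of 0.05, against 0.0% of 3509 and 0.0756% of 3966 genes.

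Adgre1 leaned to opposite sides in the Ly6Clo populations. In Ly6Clo MHCIIhi it ran from 139.5 through a median of 178 to 234 CPM in labelled ko, against 93.3 through 133 to 169 CPM in labelled ctrl. All 8 ko replicates lay above the ctrl mean and 5 above the highest ctrl replicate, and the log2 fold change was 0.48 (SE 0.16, edgeR p = 0.00678, adjusted p = 0.888). In Ly6Clo MHCIIlo it stood at 95.8, 108, 89.5 and 105 CPM in labelled ko replicates 1 to 4, against 197, 111, 157 and 114 CPM in labelled ctrl replicates 1 to 4. There the ko replicates all lay below the lowest ctrl replicate, the nearest being 108 CPM in ko and 111 CPM in ctrl. Of the 3182 genes tested there, 2.48% did not overlap between genotypes. The log2 fold change was -0.54 (SE 0.23, p = 0.0323, adjusted p = 0.999), and -0.38 without ctrl replicate 1. In Ly6Chi MHCIIhi it was -0.35 (SE 0.46, adjusted p = 0.919) and in Ly6Chi MHCIIlo -0.24 (SE 0.28, adjusted p = 0.778). In the interaction of population and genotype 0 of the 7 genes passed, against 0.0663% of all 6032 genes tested, and apart from Adgre1 the adjusted p ran from 0.841 to 0.994.

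The other genes overlapped between genotypes in every population. Adamdec1 ran from 39.9 through a median of 168 to 273 CPM in Ly6Clo MHCIIhi ko, against 50.7 through 115 to 175 CPM in ctrl, with a log2 fold change of 0.49 (SE 0.23, p = 0.0472, adjusted p = 0.949). In that population Igf1 had 0.56 (SE 0.32), Tnfsf13b 0.57 (SE 0.35), Vcam1 0.31 (SE 0.19), Dnase1l3 0.23 (SE 0.29) and Bhlhe41 -0.05 (SE 0.38), with adjusted p from 0.951 to 1.0. In Ly6Clo MHCIIlo, Dnase1l3 stood at 58.6, 61.3, 42.1 and 32.4 CPM in labelled ko, against 225, 61.7, 74.7 and 54.6 CPM in labelled ctrl. Its log2 fold change was -1.11 (SE 0.43, p = 0.019, adjusted p = 0.999) with all replicates and -0.43 without ctrl replicate 1, the replicate at 225 CPM. Adamdec1 (-0.15, SE 0.26), Igf1 (-0.34, SE 0.38), Bhlhe41 (-0.43, SE 0.40) and Vcam1 (0.18, SE 0.33) had adjusted p of 0.999 there. Tnfsf13b stood at 42.6, 33.0, 57.9 and 56.8 CPM in Ly6Clo MHCIIlo ko, against 28.1, 6.17, 37.4 and 34.8 CPM in ctrl, from 40 and 24 counts, and was under the count filter.

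**Figure D3:**
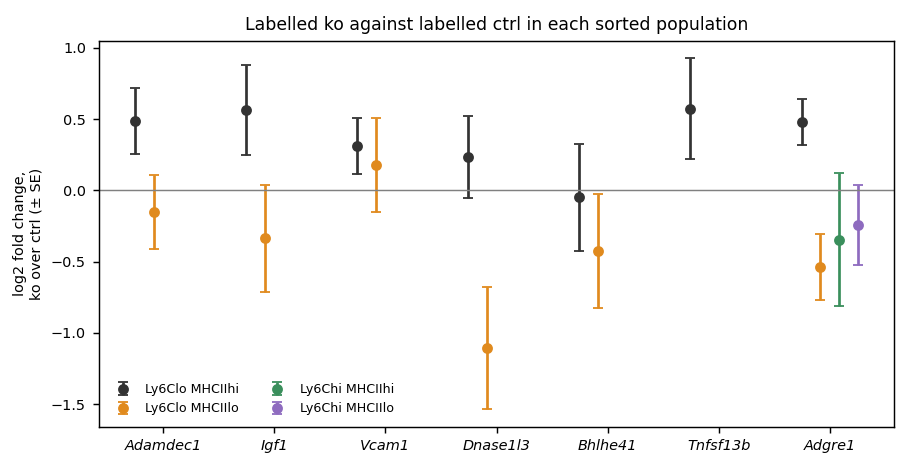
Log2 fold change of labelled ko over labelled ctrl with its SE (y axis) for each gene that passed the count filter in a population (colours). None passed the threshold; Adgre1 is at 0.48 in Ly6Clo MHCIIhi and at -0.54, -0.35 and -0.24 in the other populations.

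Other markers also differed in range between the genotypes. In Ly6Clo MHCIIhi, summed macrophage markers were 11405 to 17969 CPM in labelled ko and 8751 to 18756 CPM in labelled ctrl, endothelial markers 37.3 to 92.8 CPM in labelled ko and 13.3 to 40.2 CPM in labelled ctrl, and red cell markers 431 to 11405 CPM in labelled ko and 28.7 to 1563 CPM in labelled ctrl. In Ly6Clo MHCIIlo, summed red cell markers did not overlap, at 1516 to 6529.8 CPM in labelled ko and 59.6 to 1329 CPM in labelled ctrl, and neutrophil markers were 7407 to 26826 CPM in labelled ko and 4485 to 11265 CPM in labelled ctrl. Summed B and plasma cell markers in Ly6Clo MHCIIhi were 64.5 to 4837 CPM in labelled ko and 56.8 to 28055 CPM in labelled ctrl. Their medians were 183 and 3456 CPM, and 0 of the 3 tested genes of that list passed there. The part of cells with any of these markers in the levels of the 7 genes was not tested.

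Each library carries a barcode of 6 bases, named here G/C-rich with 3 or more G or C and otherwise A/T-rich. In Ly6Clo MHCIIlo, Ly6Chi MHCIIhi and Ly6Chi MHCIIlo every ko library was G/C-rich and every ctrl library A/T-rich, so that there the effect of the barcode class cannot be told apart from that of genotype. In Ly6Clo MHCIIhi the classes were mixed but uneven, with 8 G/C-rich and 4 A/T-rich libraries in ko and 4 and 8 in ctrl. The main genotype fit there did not take account of this. In that population, 5 replicates had a library of each class. Within these, Dnase1l3 was lower with the G/C-rich barcode in 5 of 5, at 209, 101, 77.6 and 167 CPM in ctrl replicates 5 to 8 and 349 CPM in ko replicate 4, against 588, 491, 327, 335 and 496 CPM with the A/T-rich barcode. The log2 difference, G/C-rich over A/T-rich, was -1.38 (SE 0.17, edgeR adjusted p = 1.09e-05). Thus 1 of the 6 genes tested passed, against 1.8% of all 4945 genes tested. Bhlhe41 had -0.64 (SE 0.27, adjusted p = 0.403), Adamdec1 -0.20, Igf1 -0.08, Vcam1 -0.06 and Adgre1 -0.01. In these 5 replicates barcode class nearly followed the order of the libraries. Ctrl replicates 5 to 8 carried the A/T-rich barcode on their second library, and only ko replicate 4 on its first. An effect of library order was therefore not separated from that of barcode class. For Dnase1l3, ko replicate 4 differed by -0.51, while both G/C-rich libraries of ko replicate 7 differed by 0.83 between them.

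**Figure D4:**
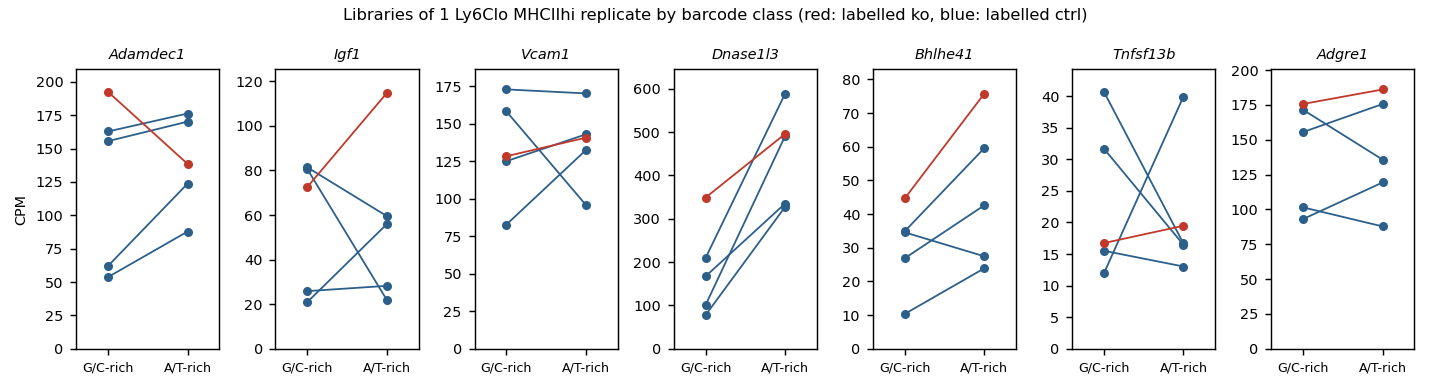
Level of each gene in CPM (y axis) in the G/C-rich and the A/T-rich library of each of 5 Ly6Clo MHCIIhi replicates; lines join the libraries of a replicate, red for labelled ko and blue for labelled ctrl. For Dnase1l3 all 5 lines run upward from the G/C-rich to the A/T-rich library, by 0.51 to 2.27 on the log2 scale.

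Within a barcode class, the levels of Dnase1l3 in Ly6Clo MHCIIhi libraries with A/T-rich barcodes were 605 ± 108 CPM for ko (SD over 4 replicates, libraries of a replicate and class averaged) and 411 ± 184 CPM for ctrl (SD over 8). With G/C-rich barcodes they were 247 ± 88.2 CPM for ko (SD over 5) and 139 ± 60.4 CPM for ctrl (SD over 4). With barcode class in the model and each library as a sample, so that libraries of a replicate count apart, its log2 fold change of ko over ctrl moved to 0.65 (SE 0.19, adjusted p = 0.35). Adgre1 had 0.48 (SE 0.15, adjusted p = 0.35) in that fit. Between MHCIIhi and MHCIIlo in Ly6Clo cells, Dnase1l3 averaged more in MHCIIhi within both classes, at 475 ± 184 CPM (SD, n = 12) in MHCIIhi and 105 ± 82.3 CPM (SD, n = 4) in MHCIIlo with A/T-rich barcodes and at 199 ± 92.3 CPM (SD, n = 9) in MHCIIhi and 49.0 ± 14.1 CPM (SD, n = 4) in MHCIIlo with G/C-rich ones, where the MHCIIlo libraries of a class are all of 1 genotype. The ranges overlapped with A/T-rich barcodes, at 117 to 754 CPM in MHCIIhi and 53.9 to 228 CPM in MHCIIlo. With G/C-rich ones they did not, at 77.6 to 349 CPM in MHCIIhi and 32.5 to 61.5 CPM in MHCIIlo. The share of all genes without overlap in this split was not computed, so nothing is read from that. In the model with barcode class the log2 fold change was 2.01 (SE 0.24, adjusted p = 3.53e-08). Within 1 genotype and class, Dnase1l3 averaged 247 CPM in MHCIIhi and 49.0 CPM in MHCIIlo for ko with G/C-rich barcodes. For ctrl with A/T-rich barcodes these means were 411 and 105 CPM.

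How the genes varied together was read over the 16 Ly6Clo MHCIIhi replicates. Of 21 pairs, 9 passed an adjusted p of 0.05 by Pearson's r of log2(CPM + 1) with 100000 permutations. All 21 values of r were above 0. The share of pairs of other genes that would pass or lie above 0 was not computed. Nothing particular to these genes is therefore read from either count. Adamdec1 and Tnfsf13b had r = 0.84 (adjusted p = 0.00294, Spearman's rho 0.79, adjusted p = 0.00588), and r = 0.57 without the 2 replicates farthest from the median of Adamdec1. Those 2 were ko replicate 6 and ctrl replicate 2, libraries of 39872 and 51630 counts, where Tnfsf13b had 0 counts and Adamdec1 2 and 3. Adamdec1 and Igf1 had r = 0.75 (adjusted p = 0.0103, rho 0.71, adjusted p = 0.0133, 0.64 without those 2), and Vcam1 and Adgre1 had r = 0.64 (adjusted p = 0.0323, rho 0.62, adjusted p = 0.0406, 0.75 without the 2 farthest for Vcam1). Of the 9, Igf1 with Tnfsf13b (r = 0.69), Vcam1 with Tnfsf13b (r = 0.58) and Dnase1l3 with Tnfsf13b (r = 0.67) did not pass by Spearman's rho (adjusted p = 0.156 each, permutation test). Without the 2 farthest replicates r was 0.32, 0.51 and 0.24 for these pairs. Within labelled ko it was 0.88, 0.62 and 0.74 for them, and within labelled ctrl 0.33, 0.55 and 0.56. By rho the highest pair was Igf1 with Vcam1 (rho 0.85, permutation adjusted p = 0.00252, r = 0.58). Igf1 with Adgre1 passed by rho (0.74, permutation adjusted p = 0.0098) but not by Pearson's r (0.42, permutation adjusted p = 0.187). Bhlhe41 was in no pair that passed, and Dnase1l3 and Adgre1 had r = 0.03 (adjusted p = 0.918, permutation test). The libraries share depth and barcode class, so r was also taken within each class over library 1 of 8 replicates. With A/T-rich and G/C-rich barcodes it was 0.88 and 0.75 for Adamdec1 and Tnfsf13b, 0.55 and 0.84 for Adamdec1 and Igf1, and 0.68 and 0.59 for Vcam1 and Adgre1. With G/C-rich barcodes, 5 of the 6 pairs of Bhlhe41 had an r below 0, down to -0.37 with Dnase1l3. With A/T-rich barcodes its 6 pairs ran from 0.10 with Tnfsf13b to 0.94 with Adgre1. Among first libraries the A/T-rich ones were those of replicates 1 to 4 of ko and ctrl, and the G/C-rich ones those of replicates 5 to 8. Class thus cannot be told apart here from the set of replicates, and a difference in r between the classes was not tested. With library 1 only, 3 pairs passed.

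**Figure D5:**
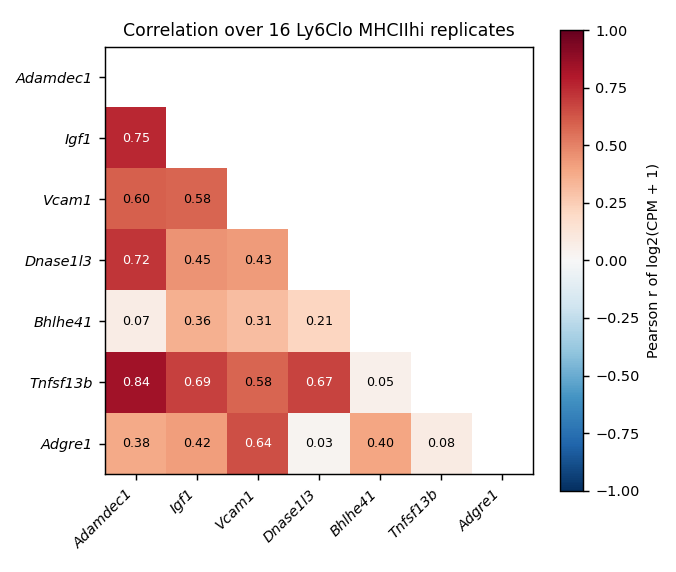
Pearson's r of log2(CPM + 1) for the 21 pairs of genes over 16 Ly6Clo MHCIIhi replicates, colour from -1 (blue) to 1 (red). The highest is 0.84 for Adamdec1 with Tnfsf13b, and the row of Bhlhe41 is pale.

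The genes most like each of the 7 were sought by the root mean square difference of centred log2(mean CPM + 1) over the 8 groups, among 6810 genes that reached 20 CPM. Those nearest to Adamdec1 were the complement gene C1qc (0.32), Ms4a7, a macrophage membrane protein gene (0.33), and C1qa (0.39). Vcam1 was nearest to Ms4a7 (0.30), C1qb (0.30) and the chemokine gene Ccl12 (0.34). Igf1 was nearest to Mmp2, a gelatinase gene (0.33), Mfge8, which bridges phagocytes to dying cells (0.42), and Bhlhe41 (0.45), and Bhlhe41 to Mmp2 (0.36), Igf1 (0.45) and Cp, the ceruloplasmin gene (0.54). Dnase1l3 was nearest to Cd72, a lectin gene (0.67), Vcam1 (0.70) and Plxdc2 (0.77), Tnfsf13b to Gdf3 (0.44), the iron exporter gene Slc40a1 (0.48) and Pon3 (0.56), and Adgre1 to Nudt2 (0.24), Pcyox1 (0.28) and Tmed1 (0.29). The Ly6C difference by which the 7 were chosen enters this measure.

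Lists of genes that act with the 7 were counted in the same comparison of MHCIIhi with MHCIIlo. The lists were chosen with earlier results of these data known, so their counts are given as a description only. Of 25 tested colon macrophage genes outside the 7, 9 were higher and 0 lower in Ly6Clo MHCIIhi, with a median log2 fold change of 0.20, against -0.0021 over all genes tested, of which 13.3% were higher and 14.3% lower. They included the Fc receptor gene Fcgr4 (1.23), Cd72 (1.09) and the lipid transfer gene Pltp (1.07). In Ly6Chi cells 12 of 22 were higher and 0 lower, with a median of 0.87, against -0.0045 over all genes tested, of which 3.23% passed in either direction, among them C1qc (2.03), C1qb (2.03), C1qa (1.81) and the receptor gene Axl, which binds dying cells (2.02). Of the adhesion genes around Vcam1, 1 of 7 tested was higher in Ly6Clo MHCIIhi, Icam1, another ligand of integrins (0.57), and 3 were lower, the integrin chain genes Itgb1 (-0.64), Itgb2 (-0.59) and Itgal (-0.50). In Ly6Chi MHCIIhi, 1 of 6 was lower, Itgb7 (-0.88).

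The shares of all genes tested in Ly6Clo, 13.3% higher and 14.3% lower, are also the background of the smaller lists. Of 3 tested genes of the insulin-like growth factor axis, 1 was higher in Ly6Clo MHCIIhi, Htra1, a protease that cuts binding proteins of these factors (1.176). Of the basic helix-loop-helix factors and partners, 2 of 5 tested were higher, Bhlhe40, the closest relative of Bhlhe41 (0.78), and Id2, an inhibitor of such factors (0.38). Of 3 tested nuclease genes other than Dnase1l3, 1 was lower, Pld3, which degrades single-stranded DNA in lysosomes (-0.46). Of 6 tested ADAM protease genes 1 was lower, Adam8 (-1.16), and of 2 tested adhesion G protein-coupled receptors 1 was higher, Adgrg5 (0.93). None of 2 tested genes of the BAFF and APRIL system passed. In the comparisons of labelled ko with labelled ctrl, 0 genes of any of these lists passed in edgeR, the macrophage list included, of which 26 were tested in Ly6Clo MHCIIhi with a median of 0.10, against -0.0096 over all genes tested.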

How the data were processed

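Poly(A) RNA of sorted cells was sequenced in bulk at the 3′ end, per the labels' protocols. The authors' table gives, for every gene symbol, a raw count in each library. The submitters' processing notes name the build GRCm38 and the tools R 3.4.4 and DESeq2 1.18.1. The sources used here state neither the aligner, nor the annotation, nor whether reads or molecular identifiers were counted. Samples were grouped by the labelled population and genotype. A row that names no gene (127 counts, 0.000967%) was left out of library sizes and tests.

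The 7 genes and all lists were chosen with earlier results of these data known. Genes were kept by filterByExpr (minimum count 10, minimum total 15) scaled by TMM and tested by quasi-likelihood in edgeR 4.0.16 (R 4.3.3), p-values being adjusted by Benjamini and Hochberg's method within each comparison (threshold 0.05). The fits of ko against ctrl in Ly6Clo MHCIIhi and of MHCIIhi against MHCIIlo in Ly6Clo were tried on simulated counts. These had the same assumed spread for every gene, with each library drawn on its own, and the other fits were not tried. The text names the 7 genes, the 3 genes most like each, up to 4 genes of a list with the smallest p past the threshold, sort markers and markers of other cells; 1 gene that this rule names is not reported here. Equal replicate numbers were checked for pairing by the correlation of deviations from group means, and in no comparison did every pair exceed 0.1, so the numbers were not taken to pair samples. Alternatives were DESeq2 1.42.0, its size factors, all libraries kept, no count filter, the first library of a replicate alone, libraries taken apart, the replicate number as a block, a joint fit of the 8 groups, other pseudocounts and each replicate left out in turn. Chosen after seeing the data were barcode class and each genotype alone for MHC class II in Ly6Clo cells, leaving out libraries under 100000 counts, and leaving out the library that stood apart. No analysis of housing was made.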

Additional observations from a re-analysis of the deposited data

Results flagged for a closer look

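In 3 of 48 screened groups of a gene, 1 replicate lay far from the others by Dixon's gap ratio, which flags about 1 in 20 groups by chance. Igf1 stood at 178.4 CPM in Ly6Clo MHCIIlo ko replicate 4, with the other 3 ko replicates of that population at 61.3 to 74.5 CPM. Dnase1l3 stood at 224.7 CPM in Ly6Clo MHCIIlo ctrl replicate 1, with the other 3 at 54.6 to 74.7 CPM. Tnfsf13b stood at 21.65 CPM in Ly6Chi MHCIIlo ko replicate 2, with the other 3 at 2.94 to 3.51 CPM.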

How the results depend on the processing

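Of the results recomputed for the 7 genes under the alternatives, 1041 were labelled the same, 9 reversed, 6 weaker, 5 moved and 1 stronger. These labels pool fold changes of single genes, Ly6C differences, interaction p-values and counts of genes or pairs. A count near the main one was also labelled the same, as with 2 genes passing against 3. The number of the 7 genes passing in MHCIIhi against MHCIIlo was 1 in Ly6Chi with no count filter, against 0, and 2 in Ly6Clo under 5 alternatives, against 3. Correlated pairs passing were 3 with library 1 only and ran from 4, without Ly6Clo MHCIIhi ctrl replicate 3 or ko replicate 2, to 9 when a replicate was left out. Of the 21 genes named as most like, 10 were shared at a pseudocount of 5 and 16 at 0.5. The sign turned for Bhlhe41, ko over ctrl in Ly6Clo MHCIIhi, with DESeq2 (0.0072), with barcode class (0.15) and in 4 leave-outs (0.088 to 0.14), the leave-outs running from -0.35 to 0.14. It turned for Vcam1 in Ly6Clo MHCIIlo without ko replicate 4 (-0.031, leave-outs up to 0.39) and, in labelled ctrl alone, for Adamdec1 (-0.21) and Adgre1 (-0.28) in MHCIIhi over MHCIIlo. There the call of Igf1 ended under 5 alternatives (also with library 1 only, -0.81, adjusted p = 0.0579) and that of Vcam1 in labelled ctrl alone, while Adgre1 passed in labelled ko alone. The causes were not tested.

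Equal replicate numbers were not taken to pair the samples, although in MHCIIhi against MHCIIlo in Ly6Chi all 7 pairs had a positive correlation (0.0531 to 0.224) and the 4 ko pairs exceeded 0.1, and the replicate block changed no call of the 7 genes (Dnase1l3 2.67, Vcam1 0.88, Igf1 -0.92 in Ly6Clo MHCIIhi over MHCIIlo), while over all genes it gave 709 calls there, against 1199. Over all genes, ko against ctrl gave 57, 24 and 61 calls with no count filter in Ly6Clo MHCIIhi, Ly6Clo MHCIIlo and Ly6Chi MHCIIlo, and 0, 2 and 14 with DESeq2, against 0, 1 and 3. In Ly6Chi MHCIIhi it called 0.694% of 16279 genes with no count filter and gave 4 calls with DESeq2, 23 in the fit of all 8 groups and 0 to 28 in leave-outs, against 0. MHCIIhi against MHCIIlo gave 593 calls in labelled ko and 325 in labelled ctrl in Ly6Clo, and in Ly6Chi 303 with no count filter and 282 in the fit of all 8 groups, against 133. There 213 were called without MHCIIhi ctrl replicate 1, 57 without MHCIIhi ctrl replicate 4, 81 without MHCIIhi ko replicate 2 and 87 without MHCIIlo ko replicate 4. Leave-outs gave 0 to 6 calls for ko against ctrl in Ly6Clo MHCIIlo and 0 to 8 in Ly6Chi MHCIIlo. The interaction gave 112 calls with no count filter, 11 with DESeq2 and 0 to 86 in leave-outs, against 4.

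Depth limits the Ly6Chi values most, where 6 of the 7 genes rest on at most 35 counts in a population.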
